A study of Mus musculus with 6 samples.

Results

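Dscaml1 and the genes around it on mouse chromosome 9 were followed in RNA-seq libraries of primary chondrocytes, the cells of cartilage, from 3 Postn-/- and 3 wt mice. The 82 genes described here were taken by position and level from the 41388 genes counted. They start on chromosome 9 between 40430293 and 50753164 of GRCm38, which is 5 Mb on either side of Dscaml1, and exceed 1 CPM (counts scaled to 1000000 per sample) in at least 2 of the 6 samples. Rps25, Atp5l and Tagln lie in the same stretch and were left out by the rule, and their values are given apart. The place of the window was chosen by the difference of Dscaml1 between the genotypes, so the values of Dscaml1 are a description with no test, and the question asked was whether its 81 flanking genes differed as well.

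Postn encodes periostin, a secreted matrix protein. The Postn-/- mice were homozygous for the mutant Postn tm1Jmol/J allele in the germline, so that no cell carried an intact copy. The wt mice were littermates from the same heterozygous crosses on a mixed B6129SF2/J background, and the sample labels give the strain as B6/129. All 6 samples came from male mice aged 21 days, and the chondrocytes of the femoral head cartilage were cultured for 2 days in medium with serum and no other treatment. Each sample is 1 mouse, so the spread between samples holds the variation between animals. Between 20587640 and 26572260 reads were counted per sample, and 3 counts corresponded to 0.115 to 0.144 CPM on the TMM scale used for the CPM values of samples here. Postn was at 4.66, 4.27 and 5.67 CPM in Postn-/- against 10.1, 10.3 and 6.90 CPM in wt, so every library labelled Postn-/- lay below every wt library. Whether its remaining reads came from outside the deleted part of the gene was not tested. The 10 chondrocyte markers summed to between 31695 and 42862 CPM in Postn-/- and between 25136 and 37969 CPM in wt. Of the 10, 7 had a log2 fold change above 0 and 3 (Matn1, Col11a1 and Hapln1, at -0.27, -0.14 and -0.03) below, and 1, Col2a1, had an unadjusted p at or below 0.05 in edgeR, beside 6.3% of all genes tested. Col2a1, the main collagen of cartilage, was at 15767, 13696 and 18081 CPM in Postn-/- against 8271, 11867 and 9567 CPM in wt.

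Dscaml1 encodes a large transmembrane protein of the immunoglobulin superfamily and is the close relative of Dscam. Proteins of this family bind like proteins on neighbouring cells through their extracellular domains, and Dscam and Dscaml1 are best known from neurons of the retina and brain, where they take part in the spacing of cell bodies and processes. Genes that lie next to each other on a chromosome can share an open domain, enhancers or, in inbred crosses, a stretch of DNA inherited together, so the levels of neighbours are commonly read beside that of a gene that differs between strains or genotypes. The window also holds other immunoglobulin superfamily adhesion genes, small regulators of ion pumps and channels, chaperones, enzymes of the mitochondrion and genes of membrane traffic.

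Dscaml1 spans 322.872 kb on the plus strand (chr9:45430293-45753164) and is counted over 33 exon blocks of 6336 bases in all. The 3 Postn-/- libraries held 122, 116 and 138 reads of it, and the 3 wt libraries 19, 16 and 20. Scaled by TMM for the size and composition of each library, these counts were 4.90, 4.72 and 6.58 CPM in Postn-/- and 0.731, 0.724 and 0.958 CPM in wt. The groups were far apart, and the lowest Postn-/- sample lay above the highest wt sample. The mean was 5.40 ± 1.02 CPM in Postn-/- and 0.804 ± 0.133 CPM in wt (mean ± SD, n = 3 each), a ratio of 6.71. On the log2 scale the fitted fold change of Postn-/- over wt was 2.74 (standard error, SE, 0.26). This was the largest of the 82 genes in either direction and rank 3 by fitted log2 fold change of the 14533 genes tested. Dscaml1 passed the filter only through its Postn-/- samples, since all 3 wt samples were below 1 CPM.

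Per kilobase of exon (RPKM), Dscaml1 remained a low gene in both genotypes. Its mean was 0.852 RPKM in Postn-/- and 0.127 RPKM in wt, which ranked it 72 and 81 among the 82 genes. None of its 50-base words (stretches as long as a read) occurred in a transcript of another gene. No counted exon of another gene overlapped its exons, and the antisense gene 4833428L15Rik, which lies across its start on the minus strand, had 0 counts in all 6 samples. These searches covered annotated transcripts and exons only, and the origin of single reads was not tested.

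None of the genes nearest to Dscaml1 passed the test between the genotypes. Of the 5 kept genes on each side, 0 of 10 had an unadjusted p at or below 0.05 by the edgeR quasi-likelihood test. The share was 6.3% of all 14533 genes tested, so a count of 0 of 10 lies near the background. The fitted log2 fold changes of the 10 genes ran from -0.26 for Fxyd6 to 0.13 for Mpzl3, with a median of -0.03. All 10 confidence intervals (95%) lay within 1 log2 unit of 0. Summed over the 10 genes, the level was 277 ± 15.6 CPM in Postn-/- and 306 ± 56.1 CPM in wt (mean ± SD, n = 3 each), and the groups overlapped.

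**Figure D1:**
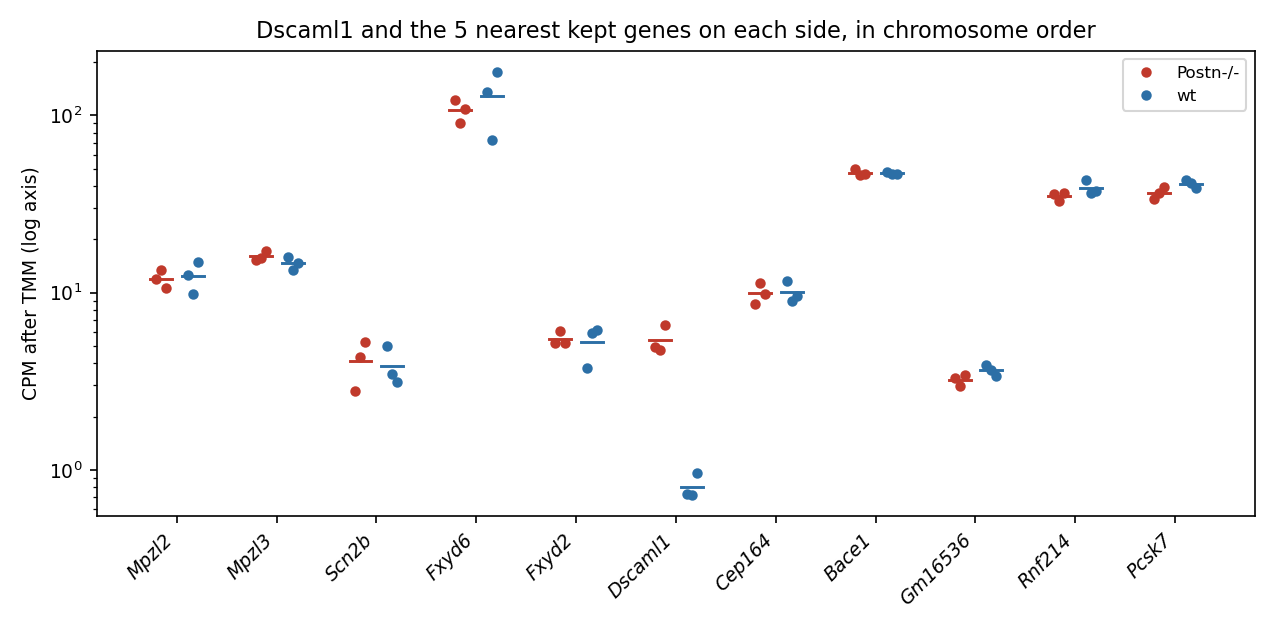
CPM after TMM normalization, on a log axis, for Dscaml1 and the 5 nearest kept genes on each side in chromosome order, with 1 point per sample and a bar at the mean of the 3 Postn-/- (red) and the 3 wt (blue) samples. Dscaml1 is the gene whose groups stand apart, at 4.72 to 6.58 CPM against 0.724 to 0.958 CPM, and each neighbour's points overlap.

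Fxyd2 and Fxyd6 lie next to Dscaml1 on its lower side, and both encode small membrane proteins that adjust the sodium-potassium pump. Fxyd2 ends 0.0200 Mb before the Dscaml1 start and was at 5.18, 6.10 and 5.19 CPM in Postn-/- against 3.77, 5.93 and 6.18 CPM in wt. Fxyd6 was at 122, 90.1 and 108 CPM in Postn-/- against 136, 72.8 and 176 CPM in wt. The wt samples of Fxyd6 spread on both sides of all 3 Postn-/- samples. Its fitted log2 fold change of -0.26 (SE 0.29, unadjusted p = 0.386 and Benjamini-Hochberg adjusted p = 0.823 by the quasi-likelihood test of edgeR) rested on single wt libraries: it was 0.03 without wt replicate 3, and without wt replicate 2 it was -0.55 with an unadjusted p of 0.0146. Scn2b, an auxiliary subunit of voltage-gated sodium channels, was at 2.77, 4.31 and 5.29 CPM in Postn-/- against 5.0, 3.48 and 3.11 CPM in wt, so both groups covered the same range.

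On the higher side, Cep164 begins 0.0138 Mb after the end of Dscaml1 and encodes a centriole protein needed for building cilia. It was at 8.64, 11.4 and 9.86 CPM in Postn-/- against 11.6, 9.0 and 9.63 CPM in wt. Bace1, the beta-secretase that cleaves the amyloid precursor protein, was at 50.0, 46.0 and 46.6 CPM in Postn-/- against 47.8, 46.7 and 46.7 CPM in wt. Bace1 had the narrowest interval of these neighbours, with a log2 fold change of 0.02 and a 95% confidence interval from -0.20 to 0.23. The interval of Cep164 ran from -0.43 to 0.39. Rnf214, named for its RING finger, was at 36.1, 33.1 and 36.6 CPM in Postn-/- against 43.2, 36.4 and 37.5 CPM in wt. Pcsk7, a proprotein convertase of the secretory pathway, was at 33.8, 36.3 and 39.6 CPM in Postn-/- against 43.4, 41.7 and 38.8 CPM in wt. For both genes the highest Postn-/- sample lay above the lowest wt sample. The exons of Bace1, Gm16536, Rnf214 and Pcsk7 overlap those of a neighbour on the other strand, and since the use of strand in counting is not given in the sources used here, reads in the overlaps could not be assigned to 1 gene.

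Across the whole window the flanking genes varied little and in both directions. Of the 81 genes, 44 had a fitted log2 fold change above 0 and 37 below 0, and the median was 0.02, beside 0.00 over all 14533 genes tested and 0.00 over the 765 other genes of chromosome 9. In 78 of the 81 (96.3%) the fitted log2 fold change was smaller than 0.5 in size, against 90.4% of all genes tested. None of the 81 reached a log2 fold change of 1 in either direction. Only 117 of all 14533 genes tested did, so a count of 0 among 81 lies near the background. The median standard deviation between samples of a group was 0.18 log2 units in Postn-/- and 0.21 in wt for these genes.

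With edgeR and Benjamini-Hochberg correction, 0 of the 81 flanking genes had an adjusted p of at most 0.05. This call was made for 2 of all 14533 genes (0.0138%), so a count of 0 lies at the background. At an unadjusted p at or below 0.05 the count was 2 of 81 (2.47%), against 6.3% of all genes tested. One of them, Dlat, was higher in Postn-/-, where the share over all genes was 3.95%, and the other, Ube4a, was lower, where it was 2.35%. In DESeq2's Wald test 3 of the 81 had an unadjusted p at or below 0.05 (6.01% of all genes in that fit), in limma with voomWithQualityWeights 4 (9.20% of all genes), and with 2 surrogate variables added 8 (15.0% of all genes), while the adjusted count was 0 in each. The genotypes did not overlap for 4 of the 81 (4.94%). Of these, 2 were higher in Postn-/-, where 7.03% of all genes were, and 2 were lower, where 6.57% were.

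**Figure D2:**
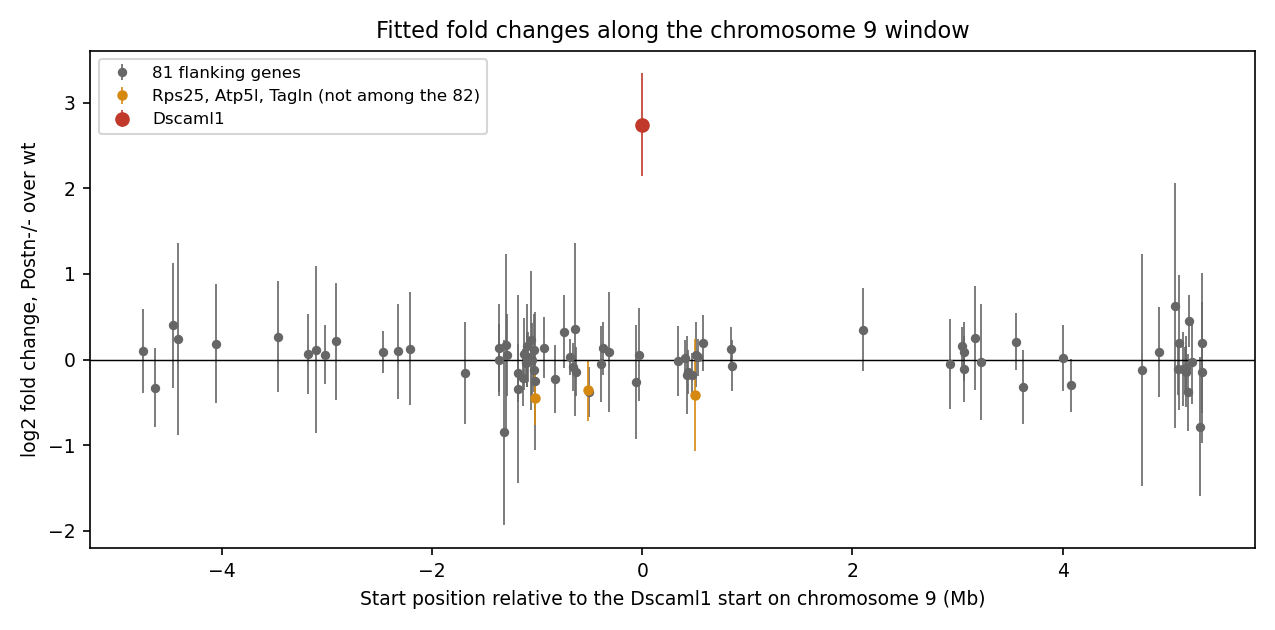
Fitted log2 fold change, Postn-/- over wt, against the distance in Mb of each gene's start from the Dscaml1 start, with bars for the 95% confidence interval. Dscaml1 (red) stands at 2.74, the 81 flanking genes (grey) lie between -0.85 and 0.63, and the 3 genes left out by the rule (orange) lie between -0.45 and -0.36.

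Medians near 0 were found at each distance from Dscaml1. The 23 genes whose starts lie within 1 Mb had a median log2 fold change of 0.02 and ran from -0.38 for Ube4a to 0.35 for Tmem25. The 42 genes within 2 Mb had a median of 0.00, and the 68 within 5 Mb a median of 0.04. On the lower side the median of the 45 genes was 0.06, and on the higher side that of the 36 genes was -0.03. Both strands gave a median near 0, at 0.00 for the 34 genes on the plus strand of Dscaml1 and 0.03 for the 47 on the minus strand.

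The precision of these counts sets what a flanking difference of the size of Dscaml1 would look like. The 95% confidence interval lay within 1 log2 unit of 0 for 68 of the 81 flanking genes. The highest upper bound was 2.06, for Plet1, which is below the fitted value of Dscaml1. Plet1, a membrane-anchored surface protein known from placenta and skin, was at 9.16, 1.38 and 3.34 CPM in Postn-/- against 2.31, 2.40 and 4.31 CPM in wt. A single Postn-/- library, replicate 1, held the high value, and without it the log2 fold change was -0.35. Its log2 fold change of 0.63 (SE 0.62) was the highest of the flanking genes, at an unadjusted p of 0.338 (Benjamini-Hochberg adjusted p = 0.808, edgeR). The lowest was that of Gm26737, at -0.85 (SE 0.47, unadjusted p = 0.107 and Benjamini-Hochberg adjusted p = 0.717 by edgeR). Gm26737 was at 1.77, 4.35 and 1.86 CPM in Postn-/- against 7.54, 4.03 and 2.83 CPM in wt, and its exons overlap those of Rnf26 on the other strand. Its log2 fold change was -1.41 without Postn-/- replicate 2 and -1.12 without wt replicate 3. It came as near to 0 as -0.36 with another library left out, so its size rested on single libraries. The unadjusted p of Gm26737 ran from 0.0161 to 0.437 over the edgeR fits with 1 library left out. With 2 surrogate variables in limma it was 0.0185.

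The change second in size among the flanking genes was that of 2310030G06Rik, at 1.85, 4.72 and 2.38 CPM in Postn-/- against 5.77, 5.20 and 4.46 CPM in wt. Replicate 2 was the Postn-/- sample that overlapped the wt samples. The log2 fold change was -0.78 (SE 0.35, unadjusted p = 0.0565 and Benjamini-Hochberg adjusted p = 0.717 by edgeR). Its unadjusted p was at or below 0.05 in 6 of the 15 alternative settings, at 0.00407 with 2 surrogate variables and 0.00191 without Postn-/- replicate 2, where the log2 fold change was -1.29. Its adjusted p was at least 0.196 in each of the 15. Gm26737, Plet1 and 2310030G06Rik were outside the rule for named genes and were chosen after their values were seen.

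Dlat and Ube4a were the flanking genes with the smallest unadjusted p, and they lie on opposite sides of Dscaml1 with opposite signs. Dlat (chr9:50634633-50659780, minus strand) encodes the E2 subunit of the pyruvate dehydrogenase complex, which feeds pyruvate into the citric acid cycle. It was at 39.4, 35.8 and 42.7 CPM in Postn-/- against 25.7, 27.8 and 32.5 CPM in wt. All 3 Postn-/- samples lay above all 3 wt samples. The log2 fold change was 0.45 (SE 0.13, unadjusted p = 0.00853 and Benjamini-Hochberg adjusted p = 0.717 by the quasi-likelihood test of edgeR), and it did not pass the adjusted threshold. Its start lies 5.20 Mb from that of Dscaml1. Over the 15 alternative settings the fold change of Dlat ran from 0.38 to 0.55 and its unadjusted p from 0.00393 to 0.0383.

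Ube4a (chr9:44923131-44965600, minus strand) encodes a U-box protein that extends ubiquitin chains. It was at 56.6, 45.2 and 42.5 CPM in Postn-/- against 62.1, 60.8 and 64.4 CPM in wt. All 3 Postn-/- samples lay below the wt samples, which were close together. The log2 fold change was -0.38 (SE 0.13, unadjusted p = 0.0185 and Benjamini-Hochberg adjusted p = 0.717 by the quasi-likelihood test of edgeR). The unadjusted p of Ube4a was above 0.05 in 3 of the 6 fits with a library left out, at 0.0585 without Postn-/- replicate 2, 0.0715 without Postn-/- replicate 3 and 0.0560 without wt replicate 3. The start of Ube4a lies at -0.51 Mb relative to that of Dscaml1. The kept genes between them are Mpzl2, Mpzl3, Scn2b, Fxyd6 and Fxyd2, and genes below the filter lie there too.

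The promoters of these 2 genes are shown because they are the flanking genes that came closest to a call, 1 in each direction. The windows run from 250 bases before to 50 bases after the gene start, are written 5′ to 3′ on the strand of the gene and come from RefSeq on GRCm38.p6, in which 48 of the 82 genes were matched and Dscaml1 was not. Capitals mark the GC box letters GGGCGG and the letters CCAAT, each searched on both strands. The Dlat window is chr9:50659731-50660030 and the Ube4a window is chr9:44965551-44965850, both on the minus strand.
Dlat: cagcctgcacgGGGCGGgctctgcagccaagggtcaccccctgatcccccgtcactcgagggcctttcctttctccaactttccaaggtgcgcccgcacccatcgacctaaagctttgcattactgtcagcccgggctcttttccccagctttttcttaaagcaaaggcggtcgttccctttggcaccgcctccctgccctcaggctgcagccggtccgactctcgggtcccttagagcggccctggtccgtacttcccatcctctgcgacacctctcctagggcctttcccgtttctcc
Ube4a: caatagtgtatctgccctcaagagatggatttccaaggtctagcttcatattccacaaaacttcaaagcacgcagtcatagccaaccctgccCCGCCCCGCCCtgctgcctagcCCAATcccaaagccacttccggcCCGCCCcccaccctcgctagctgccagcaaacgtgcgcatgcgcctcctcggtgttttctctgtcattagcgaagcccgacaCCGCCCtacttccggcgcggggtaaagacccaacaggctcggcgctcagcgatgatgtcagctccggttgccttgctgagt
The Dlat window was 62.0% GC with 18 CpG and held 1 GC box and 0 CCAAT. The Ube4a window was 59.3% GC with 20 CpG and held 4 GC boxes, a pair of them overlapping, and 1 CCAAT. The letters TATAAA were in neither. Over 32851 promoters of the same length the median was 52.7% GC and 7 CpG, and 35.7% held GGGCGG, 37.4% CCAAT and 13.6% TATAAA. The matches describe these letters only.

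Rexo2 and Pih1d2 were the other flanking genes whose genotypes did not overlap. Rexo2 encodes an exonuclease of the mitochondrion that degrades very short RNAs, and per length it was the highest of the 82 genes. It was at 336, 318 and 312 CPM in Postn-/- against 299.9, 291 and 277 CPM in wt, with a log2 fold change of 0.15 and an unadjusted p of 0.151 by the edgeR quasi-likelihood test (adjusted p = 0.73, Benjamini-Hochberg adjustment). Pih1d2 was at 4.50, 4.11 and 4.05 CPM in Postn-/- against 6.27, 4.80 and 5.46 CPM in wt. Its log2 fold change was -0.38 (unadjusted p = 0.0811, adjusted p = 0.717, same edgeR test with Benjamini-Hochberg adjustment), and its exons overlap those of Nkapd1 on the other strand. Pih1d2 was outside the rule for named genes and was chosen after its values were seen.

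The 3 genes that the rule left out lie between the flanking genes and were all lower in the mean in Postn-/-. Rps25, a protein of the small ribosomal subunit, was at 39.7, 39.0 and 30.2 CPM in Postn-/- against 51.0, 53.0 and 44.5 CPM in wt. Atp5l, a subunit of ATP synthase, was at 6.07, 6.47 and 6.15 CPM in Postn-/- against 8.34, 7.83 and 7.81 CPM in wt. The genotypes did not overlap for either gene. Their log2 fold changes were -0.45 and -0.36, with unadjusted p of 0.0124 and 0.0497 and an adjusted p of 0.717 for both by the edgeR quasi-likelihood test with Benjamini-Hochberg correction. Tagln, an actin-binding protein of smooth muscle, was at 10.01, 13.95 and 13.5 CPM in Postn-/- against 15.1, 11.04 and 23.9 CPM in wt, and the groups overlapped. With these 3 added, 4 of 84 flanking genes (4.76%) had an unadjusted p at or below 0.05, 1 of them higher and 3 lower, beside 6.3%, 3.95% and 2.35% of all genes, and 0 had an adjusted p of at most 0.05. The unadjusted p of Rps25 was at or below 0.05 in all 15 alternative settings, and that of Atp5l was above it in 10 of the 15, among them all 6 with a library left out (0.0758 to 0.117). That of Tagln, 0.178 in edgeR, was 0.0330 without wt replicate 2 and up to 0.770 with other single libraries left out. The log2 fold change of Tagln was -0.42 with all 6 samples and ran from -0.64 to -0.07 with 1 library left out. Of the 50-base words of Rps25, 32.3% occurred in transcripts of another gene, and for Tagln 58.3%, so their counts are less certain than those of genes with few shared words.

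**Figure D3:**
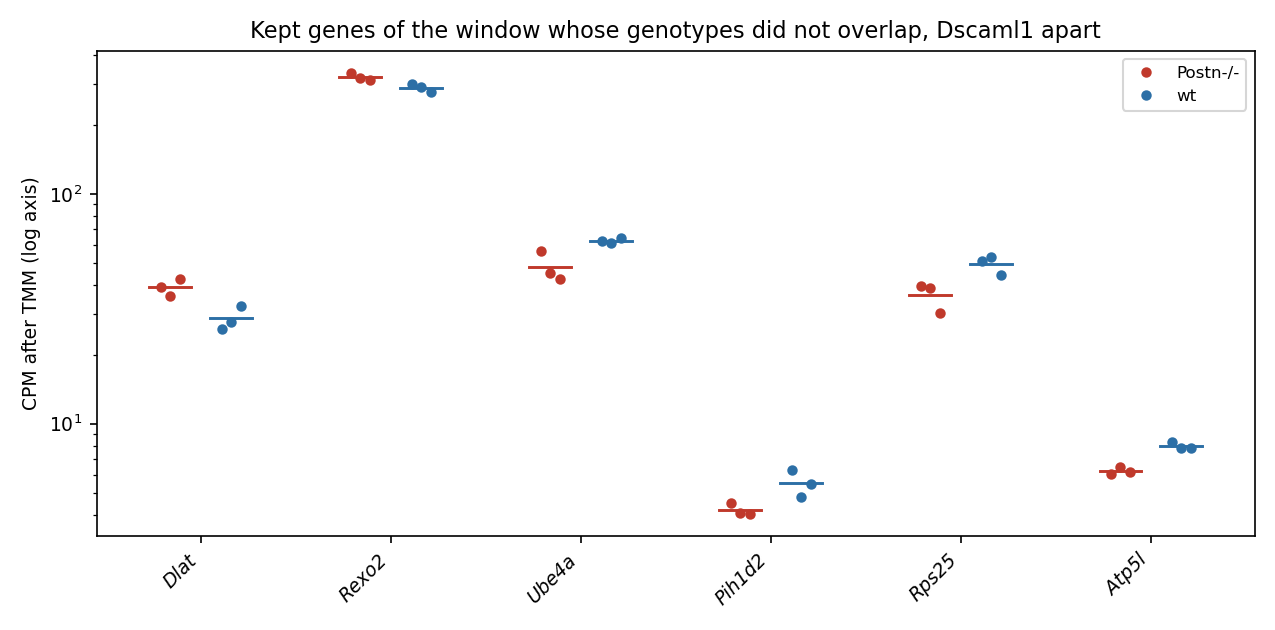
CPM after TMM normalization, on a log axis, for the kept genes of the window other than Dscaml1 whose genotypes did not overlap, with 1 point per sample and a bar at the mean of the 3 Postn-/- (red) and 3 wt (blue) samples. Dlat and Rexo2 are higher in Postn-/-, with Dlat at 35.8 to 42.7 against 25.7 to 32.5 CPM, and Ube4a, Pih1d2, Rps25 and Atp5l are lower, the last 2 being genes left out of the 82.

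The other immunoglobulin superfamily adhesion genes of the window are the closest in kind to Dscaml1. Of the 10 other than Dscaml1, 8 were tested and 0 of these had an unadjusted p at or below 0.05 by the edgeR quasi-likelihood test (6.3% of all genes), 5 had a log2 fold change above 0 and 3 below, and the median was 0.11. Ncam1, the neural cell adhesion molecule, was the most abundant of them per length, at 55.6 RPKM in Postn-/- and 68.5 RPKM in wt. It was at 257, 192 and 202 CPM in Postn-/- against 279.7, 271 and 251 CPM in wt, and the highest Postn-/- sample lay above the lowest wt sample. Its log2 fold change was -0.30 (SE 0.13, unadjusted p = 0.0546 and Benjamini-Hochberg adjusted p = 0.717 by the quasi-likelihood test of edgeR). In 6 of the 15 alternative settings its unadjusted p was at most 0.05, the lowest being 0.00767 without Postn-/- replicate 1, and the fold change ran from -0.44 to -0.22.

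Cadm1, a synaptic cell adhesion molecule with wide expression, was at 9.48, 16.4 and 13.3 CPM in Postn-/- against 10.4, 9.64 and 10.7 CPM in wt. The lowest of its 6 values was a Postn-/- sample. Without that library, replicate 1, its log2 fold change was 0.54 with an unadjusted p of 0.0175, and with all 6 samples it was 0.35 with an unadjusted p of 0.136 in the edgeR test (adjusted p = 0.723). Leaving out other single libraries brought the fold change of Cadm1 down to 0.15 and its unadjusted p up to 0.487 in edgeR. Mpzl2 and Mpzl3, relatives of the myelin protein zero, lie within 0.4 Mb of Dscaml1. Mpzl2 was at 11.9, 13.4 and 10.6 CPM in Postn-/- against 12.6, 9.77 and 15.0 CPM in wt, and 30.3% of its 50-base words occurred in another gene. Mpzl3 was at 15.2, 15.7 and 17.3 CPM in Postn-/- against 15.9, 13.4 and 14.6 CPM in wt. The groups overlapped for both.

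Clmp, an adhesion molecule of cell junctions and the first kept gene of the window, was at 15.1, 18.6 and 11.4 CPM in Postn-/- against 13.4, 16.6 and 12.2 CPM in wt. Nectin1, an adherens junction protein, was at 2.89, 3.66 and 4.19 CPM in Postn-/- against 4.92, 4.03 and 3.02 CPM in wt. Crtam, a partner of nectin-like proteins on lymphocytes, and Mcam, an adhesion molecule of vessels and mesenchymal cells, were near the filter, with 0.654 to 1.43 CPM and 0.335 to 1.4 CPM over the 6 samples. Their log2 fold changes were 0.40 and 0.17, with SEs of 0.31 and 0.46, so a difference of 1 log2 unit lay within both 95% confidence intervals. The value of Mcam was 0.89 with voomWithQualityWeights in limma, the furthest from 0 of the flanking genes in that fit, and -0.21 without wt replicate 3. Thy1 and Jaml did not pass the filter. Thy1 had 10, 13 and 13 counts in Postn-/- and 9, 6 and 5 in wt, and Jaml had 7, 13 and 3 counts against 19, 7 and 9.

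**Figure D4:**
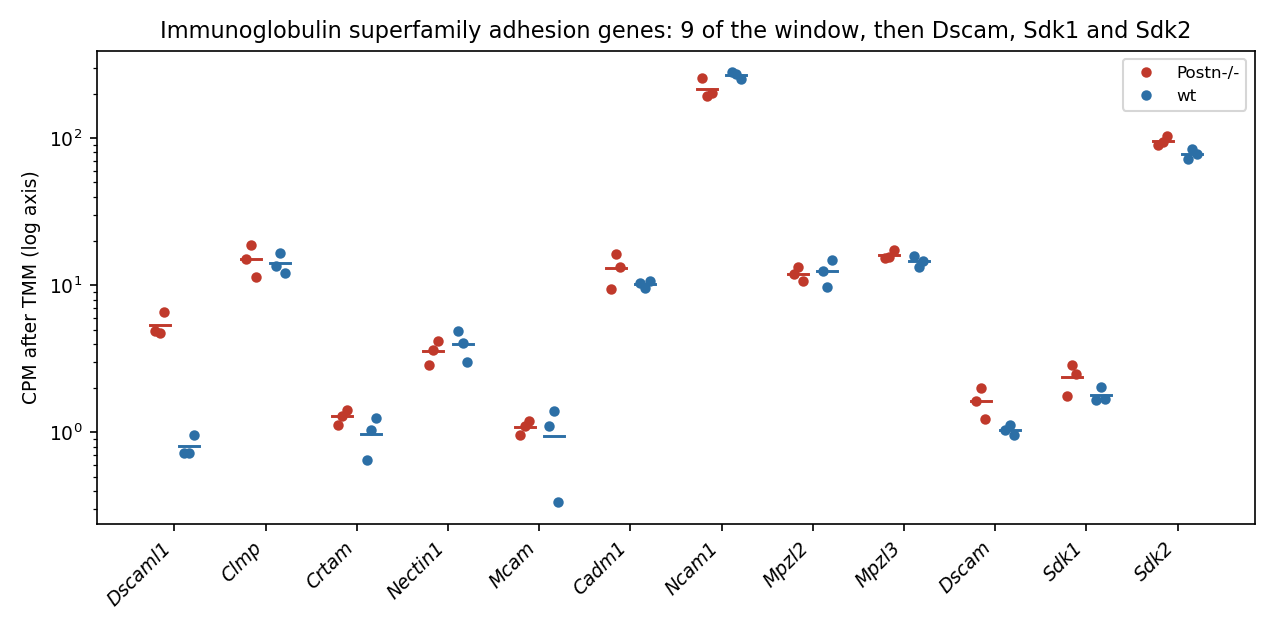
CPM after TMM normalization, on a log axis, for the 9 tested immunoglobulin superfamily adhesion genes of the window and for Dscam, Sdk1 and Sdk2 of other chromosomes, with 1 point per sample and a bar at the mean of the 3 Postn-/- (red) and 3 wt (blue) samples. Dscaml1 is at 4.72 to 6.58 against 0.724 to 0.958 CPM, and the other 8 genes of the window overlap between genotypes.

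Across the genome, 34 adhesion and guidance receptors of the same superfamily were tested beside Dscaml1, of which 24 lie on other chromosomes, 10 on chromosome 9 and 5 of those 10 in the window. Crtam, Mpzl2 and Mpzl3, tested in the window, are not in this list. Of the 34, 26 had a log2 fold change above 0 and 8 below, with a median of 0.30 against 0.00 over all genes, and 4 (11.8%) had an unadjusted p at or below 0.05, all of them higher in Postn-/- (3.95% of all genes). This count rested on single libraries and, with Dscaml1 counted too, fell from 5 to 2 without Postn-/- replicate 3 and to 3 without wt replicate 2. None had an adjusted p of at most 0.05 by the edgeR quasi-likelihood test with Benjamini-Hochberg correction. Esam, 1 of the 10 on chromosome 9 and of the 26 above 0, passed the filter only through its Postn-/- samples, so its sign is no test. The 24 on other chromosomes, which do not hold Esam, held all 4. Of these 24, 18 had a log2 fold change above 0 and 6 below, with a median of 0.30. The 10 on chromosome 9, Esam among them, had a median of 0.26. Dscam, on chromosome 16, was at 1.65, 1.99 and 1.24 CPM in Postn-/- against 1.04, 1.13 and 0.958 CPM in wt. All 3 Postn-/- samples lay above the wt samples, with a log2 fold change of 0.64 (SE 0.28, unadjusted p = 0.0493 and Benjamini-Hochberg adjusted p = 0.717 by edgeR). Sdk2, a sidekick protein that pairs like cells in the retina, was at 90.1, 93.7 and 104 CPM in Postn-/- against 71.7, 84.8 and 78.4 CPM in wt, with a log2 fold change of 0.29 and an unadjusted p of 0.0284 in the edgeR test (adjusted p = 0.717). The other 2 were Nfasc and Robo2, at log2 fold changes of 0.59 and 0.60 with unadjusted p of 0.0425 and 0.0275 in the same edgeR test (adjusted p = 0.717 for both). The difference of Dscaml1 was over 2 log2 units larger than any of these 4, with no test of that difference.

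Partners of Dscam proteins and markers of other cell types were read beside Dscaml1. Of 12 tested partners, which are netrins, slits, MAGI scaffolds and the Nck, Pak1 and Rac1 signalling proteins, 0 had an unadjusted p at or below 0.05 in the edgeR test (6.3% of all genes), and their median log2 fold change was 0.11. Of 12 neuronal markers 9 passed the filter. All 3 Postn-/- samples of Dcx, a microtubule protein of young neurons, lay above the wt samples, at 1.37, 1.30 and 0.905 CPM in Postn-/- and 0.769, 0.633 and 0.623 CPM in wt (log2 fold change 0.81, with no test, since Dcx passed the filter only through its Postn-/- samples and all 3 wt values were below 1 CPM). The Postn-/- samples of Gap43, a growth cone protein, lay below, at 1.0, 1.5 and 0.953 CPM in Postn-/- and 1.92, 2.04 and 1.63 CPM in wt (unadjusted p = 0.0394, adjusted p = 0.717, edgeR). The 12 summed to 35.0 to 42.1 CPM in Postn-/- and 37.6 to 42.6 CPM in wt, and Stmn2 and Nefl stayed below 1 CPM in every sample. Of 5 glial markers 2 were tested and 0 had an unadjusted p at or below 0.05 (6.3% of all genes). They summed to 8.30 to 9.32 CPM in Postn-/- and 6.65 to 16.5 CPM in wt. Of 5 endothelial markers 3 passed the filter, Emcn only through its Postn-/- samples, and the others, Pecam1 and Kdr, had log2 fold changes of 0.11 and 0.45. The 5 summed to 5.99 to 9.48 CPM in Postn-/- and 4.19 to 8.10 CPM in wt. Of 5 blood markers 3 were tested, also above 0 (median 0.40), and the 5 summed to 19.8 to 30.9 CPM and 9.46 to 22.7 CPM. Pecam1, Kdr and the 3 blood genes each had an unadjusted p above 0.05. The vessel genes Esam and Jam2 of the adhesion list had log2 fold changes of 0.70 and 0.65, of which Esam passed the filter only through its Postn-/- samples. The part of such cells in the median of that list was not tested. Of 5 muscle markers 2 were tested and went opposite ways, Acta1 at a log2 fold change of -1.30 (unadjusted p = 0.0152, adjusted p = 0.717, edgeR, beside 6.3% of all genes at or below 0.05) and Des at 0.55, and the 5 summed to 5.59 to 8.13 CPM in Postn-/- and 7.34 to 19.0 CPM in wt. Of 4 fibroblast markers 0 had an unadjusted p at or below 0.05 (6.3% of all genes). In these bulk samples fewer cells of a type and less RNA per cell cannot be told apart.

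The remaining genes of the window were grouped by what they are known to do. Of the 4 chaperone genes, 0 had an unadjusted p at or below 0.05 (6.3% of all genes), and the median log2 fold change was -0.08. Hspa8, the constitutive chaperone of the cytosol, was at 249, 288 and 360.3 CPM in Postn-/- against 434, 411 and 282 CPM in wt, and 39.4% of its 50-base words occurred in another gene. Without wt replicate 3 the log2 fold change of Hspa8 was -0.50 with an unadjusted p of 0.0295, and with all 6 samples it was -0.33 with an unadjusted p of 0.138 (edgeR, adjusted p = 0.723). It came as near to 0 as -0.21 with another library left out, and as -0.098 among the settings that kept all 6 samples. Cryab, a small heat shock protein and the last kept gene of the window, was at 89.8, 97.8 and 137 CPM in Postn-/- against 142, 47.5 and 94.6 CPM in wt, and its neighbour Hspb2 was at 1.75 to 2.45 CPM and 1.27 to 3.00 CPM. Both small heat shock genes had wt samples above and below all Postn-/- samples. With 2 surrogate variables in limma, Cryab had a log2 fold change of 0.44 and an unadjusted p of 0.0345, against 0.19 and 0.605 in edgeR. Hyou1, the chaperone of the endoplasmic reticulum, had a log2 fold change of -0.01.

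Of 10 tested genes of metabolism and mitochondria, 1, Dlat, had an unadjusted p at or below 0.05 (6.3% of all genes), and the median was 0.04. Sdhd, a membrane subunit of succinate dehydrogenase, was at 235, 204 and 215 CPM in Postn-/- against 268, 214 and 232 CPM in wt. Timm8b, a chaperone of the mitochondrial intermembrane space, was at 83.9, 76.6 and 95.2 CPM in Postn-/- against 92.0, 90.8 and 90.1 CPM in wt. Both genes lie between Dscaml1 and Dlat, less than 0.1 Mb from Dlat, and their groups overlapped. Sc5d, an enzyme of cholesterol synthesis, was at 194, 172 and 255 CPM in Postn-/- against 224, 148 and 219.9 CPM in wt. Nlrx1, a mitochondrial member of the NLR family, was at 27.8, 27.6 and 25.0 CPM in Postn-/- against 34.8, 30.1 and 24.8 CPM in wt.

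Of 10 genes of membrane traffic and protein processing, 0 had an unadjusted p at or below 0.05 (6.3% of all genes) and the median was 0.03. Trappc4, a subunit of the TRAPP tethering complexes, was at 108, 130.2 and 122 CPM in Postn-/- against 137, 136 and 121 CPM in wt, with 19.6% of its 50-base words in another gene. Sorl1, a sorting receptor, was at 13.9, 7.57 and 15.8 CPM in Postn-/- against 11.6, 8.28 and 11.1 CPM in wt. Without Postn-/- replicate 2 its log2 fold change was 0.52 with an unadjusted p of 0.0370, and with all 6 samples it was 0.26 with an unadjusted p of 0.374 (edgeR, adjusted p = 0.82). Over the edgeR fits with 1 library left out, the fold change of Sorl1 went down to 0.05 and its unadjusted p up to 0.870. Of 9 genes of ubiquitin and kinase signalling, 1, Ube4a, had an unadjusted p at or below 0.05 (6.3% of all genes) and the median was 0.05. Sik3, a kinase needed for chondrocyte maturation in growth cartilage, was at 18.4, 16.6 and 14.9 CPM in Postn-/- against 13.3, 15.97 and 14.5 CPM in wt, with a log2 fold change of 0.19 and a 95% confidence interval from -0.14 to 0.52.

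Of 13 tested genes of transcription, chromatin and RNA, 0 had an unadjusted p at or below 0.05 (6.3% of all genes) and the median was -0.03. Hinfp, a zinc finger factor of histone H4 genes, was at 10.3, 12.8 and 11.3 CPM in Postn-/- against 13.0, 14.2 and 12.7 CPM in wt. Zw10, which acts at kinetochores and in membrane traffic rather than in transcription, was at 40.8, 37.1 and 34.2 CPM in Postn-/- against 57.9, 34.2 and 48.1 CPM in wt. Without wt replicate 2 the log2 fold change of Zw10 was -0.50 with an unadjusted p of 0.00728, and with all 6 samples it was -0.32 with an unadjusted p of 0.126 (edgeR, adjusted p = 0.719). Leaving out other single libraries brought it as near to 0 as -0.14 and its unadjusted p up to 0.437 in edgeR. Of 5 genes of microtubules and cilia, 0 had an unadjusted p at or below 0.05 (6.3% of all genes) and the median was 0.02. Phldb1, which anchors microtubules at the cell cortex, was at 24.5, 26.5 and 27.3 CPM in Postn-/- against 15.3, 24.7 and 22.4 CPM in wt. Without wt replicate 2 its unadjusted p was 0.0397, and with all 6 samples its log2 fold change was 0.33 with an unadjusted p of 0.111 (edgeR, adjusted p = 0.717). Over the edgeR fits with 1 library left out, the fold change of Phldb1 ran from 0.15 to 0.47 and its unadjusted p up to 0.267. Ift46, a protein of intraflagellar transport, was at 85.2 to 99.3 CPM and 86.1 to 109 CPM, and Tbcel, a tubulin chaperone-like protein, at 13.9 to 16.9 CPM and 12.7 to 15.5 CPM.

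Of 10 genes of channels, receptors and ion pumps, 4 passed the filter and 0 of these had an unadjusted p at or below 0.05 (6.3% of all genes). Grik4, a kainate receptor subunit, was at 2.01, 2.64 and 2.48 CPM in Postn-/- against 1.35, 2.53 and 2.30 CPM in wt. The 18 flanking genes in none of these groups had a median log2 fold change of -0.08, 8 above and 10 below 0, and 0 had an unadjusted p at or below 0.05 (6.3% of all genes). They hold the lowest and the highest values of the flanking genes, those of Gm26737 and Plet1.

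Expression per length ranged widely among the 82 genes, and the level of Dscaml1 sat at the low end. Rexo2 was the highest, at 299.6 RPKM in Postn-/- and 269 RPKM in wt. By the mean of both genotypes, Sdhd, Timm8b, Trappc4 and Sc5d followed. Tecta was the lowest at 0.132 RPKM in Postn-/- and 0.123 RPKM in wt. The 16 flanking genes of lowest mean RPKM had fitted log2 fold changes from -0.16 to 0.40, with 11 above 0 and a median of 0.15. Among these 16, 0 had an unadjusted p at or below 0.05 in edgeR, beside 6.3% of all genes tested. Their confidence intervals were wide, and 6 of the 16 had an upper bound of at least 1. None of these low genes had a fitted value near the 2.74 of Dscaml1.

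**Figure D5:**
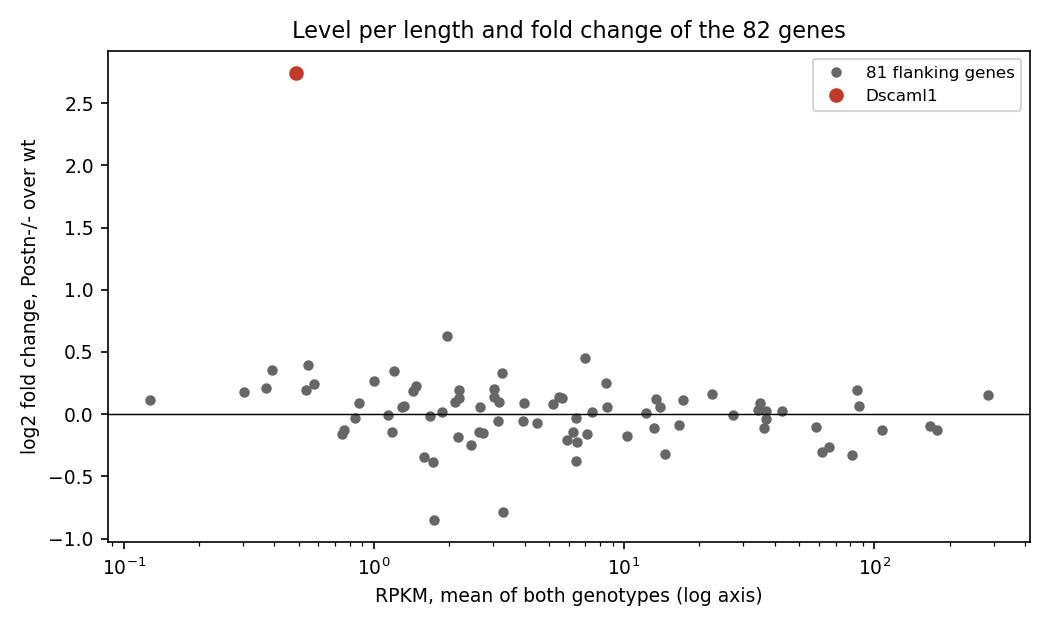
Fitted log2 fold change, Postn-/- over wt, against RPKM (the mean of both genotypes, log axis) for the 82 genes, 1 point per gene. Dscaml1 (red) lies at 2.74 among the genes of low RPKM, where the 16 lowest flanking genes (grey) lie between -0.16 and 0.40.

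Genes of the window too low for the filter were looked at as counts. Of the 176 genes starting in the window 91 were not kept, and 17 of these had no count in any sample. Without the filter 52 of the 91 could be fitted, and 0 had an unadjusted p at or below 0.05 by the edgeR quasi-likelihood test, while in that fit 5.68% of all 25528 genes did. Their median log2 fold change was 0.17, with 33 of 52 above 0. The highest single count was 33, for Scn4b in Postn-/- replicate 2, and the 5 other samples of Scn4b had 3 to 9 counts. Just outside the window, Gramd1b and Zfp202 on the lower side had log2 fold changes of -0.40 and 0.30, and 1110032A03Rik and Fdxacb1 on the higher side -0.07 and -0.16.

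Summed over the 81 flanking genes, the genotypes overlapped. The sums were 3852, 3610 and 3819 CPM in Postn-/- and 4109, 3733 and 3826 CPM in wt. The means were 3760 ± 131 CPM and 3889 ± 196 CPM (mean ± SD, n = 3 each). Of the 82 genes, 13 had more than 10% of their 50-base words in another gene and 19 shared exon bases with another gene, and for these the count could hold or lack reads of that gene.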

How the data were processed

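RNA-seq libraries of 3 Postn-/- and 3 wt mice were analysed as deposited. According to the methods, 10 ng of RNA was amplified with a SMARTer Ultra Low kit and sequenced as single-end reads of 50 bases. The authors used STAR 2.0.4b with Ensembl release 76 for alignment and deposited raw counts per gene of uniquely aligned unambiguous reads from featureCounts 1.4.5. The coordinates in the files are those of GRCm38, while the labels' list of builds names mm9, and the use of strand is not given in the sources used here. The authors also deposited CPM, the count scaled to 1000000 counts per sample, and RPKM, which is CPM per kilobase of exon. Both were recomputed from the counts as a check, and the deposited RPKM was replaced by one after TMM. Symbols came from GENCODE M21 (40340 of 41388 identifiers, 97.5%).

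Tested were the 14533 genes above 1 CPM in at least 2 samples, without 355 rRNA genes. The genotypes were compared in R 4.3.3 by edgeR 4.0.16 (TMM, quasi-likelihood test, no covariates, Benjamini-Hochberg adjustment over all 14533 genes). SEs were derived from the F statistic. Replicates of a group differed by 39.6 to 110 chi-square per degree of freedom, so each was used as 1 sample. The fit was tested on simulated data. Named genes were Dscaml1, the 5 nearest kept genes on each side, genes of the window with an unadjusted p at or below 0.05 or a log2 fold change of at least 1 in size, the adhesion genes, the first and last gene, the 3 left out, the 5 of highest RPKM, and up to 3 of smallest p per role list. The window, members and lists were chosen with earlier results of these data known. Shared sequence was measured by cutting transcripts into 50-base words and looking each one up in other genes. Alternatives were DESeq2 1.42.0 (size factors, Wald test), upper quartile scaling, other filters, voomWithQualityWeights (limma 3.58.1) without and with 2 surrogate variables (sva 3.50.0), a robust fit, a replicate block and each sample left out. Intervals and floors cover counting error and the spread of these 6 samples only.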

Additional observations from a re-analysis of the deposited data

How the results depend on the processing

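The log2 fold change of Dscaml1 stayed between 2.58 and 2.88 in the 14 alternative settings that could fit it; it was not fitted where more than 1 CPM was asked of all 6 samples. The adjusted count among the 81 flanking genes was 0 in all 15 settings, and their median log2 fold change ran from -0.02 to 0.04. For the 42 genes followed by name other than Dscaml1, which include Rps25, Atp5l, Tagln and 4 genes chosen after their values were seen, 560 of 628 values kept their sign and their side of the unadjusted threshold, 31 turned in sign, 24 moved past 0.05 and 13, 10 of them of Atp5l and 3 of Ube4a, moved above it. The cause of these moves was not tested, and every gene that turned in sign had an unadjusted p above 0.4 in the setting that turned it.

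Dscaml1, whose p is no test since it chose the window, adds 1 to each count that follows wherever it was fitted. The number of the 82 genes with an unadjusted p at or below 0.05 was 3 (6.3% of all genes), and 5 without a filter other than a total of 10 counts (5.68% of all genes in that fit), 5 with voomWithQualityWeights (9.20%) and 9 with 2 surrogate variables (15.0%). With 1 library left out it ran from 2 (without Postn-/- replicate 3) to 6 (without Postn-/- replicate 1 or wt replicate 2), with 5 without Postn-/- replicate 2, while the share of all genes ran from 2.98% to 8.71%. For the 9 tested adhesion genes of the window the count was 1, Dscaml1 itself, beside 6.3% of all genes. It was 0 with more than 1 CPM in all 6 samples, a filter that removes Dscaml1. It was 2 without a filter, with voomWithQualityWeights and with the robust fit (5.68%, 9.20% and 6.32% of all genes). With 2 surrogate variables it was 3 (15.0%). With 1 library left out it ran from 1 to 3, the 3 being without Postn-/- replicate 1 (6.02%). For the adhesion genes of the whole genome it was 5 of 35 tested (6.3% of all genes). It was 3 with more than 1 CPM in all samples (6.45% of all genes) and 9 with 2 surrogate variables (15.0%). With 1 library left out it ran from 2 without Postn-/- replicate 3 (2.98%) to 7 without Postn-/- replicate 1 (6.02%). Without wt replicate 2 it was 3 (8.71%).

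With the replicate number as a block, the count of the 82 genes was 5, that of the adhesion genes of the window 2, and 8.17% of all genes had an unadjusted p at or below 0.05. Same-numbered samples are different mice, and the correlations of their deviations were 0.0824, 0.155 and 0.143, not all above the 0.1 set for pairing, so the samples were not treated as pairs. Each sample did correlate best with its own number, as the other 6 correlations ran from -0.13 to 0.014, which is a hint from the data and not from the design. Deviations were taken from the group means, so values above 0 for same-numbered samples pull the other 6 down. The 2 sets of correlations are therefore not independent.

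The sign turned with upper quartile scaling for Cep164 (0.0042), without a filter for Bace1 (-0.029), with voomWithQualityWeights for Fxyd2 (-0.055), Cep164 (0.0090) and Nectin1 (0.046), and with 2 surrogate variables for Mpzl2 (0.016) and Cep164 (0.045). With 1 library left out, the log2 fold change ran from -0.20 to 0.10 for Mpzl2, from -0.13 to 0.32 for Scn2b, from -0.55 to 0.028 for Fxyd6, from -0.14 to 0.18 for Fxyd2, from -0.12 to 0.10 for Cep164 and from -0.022 to 0.037 for Bace1. It ran from -0.085 to 0.26 for Clmp, from -0.33 to 0.021 for Nectin1, from -0.21 to 0.54 for Mcam, from -0.13 to 0.61 for Cryab and from -0.11 to 0.19 for Sc5d. It ran from -0.45 to 0.043 for Hspb2, from -0.16 to 0.012 for Ift46, from -0.028 to 0.12 for Tbcel, from -0.025 to 0.39 for Grik4 and from -0.35 (without Postn-/- replicate 1) to 1.06 for Plet1. For the 16 flanking genes of lowest RPKM the median SE was 0.30 log2 units, against 0.19 over all genes tested, and the parts of depth and of the spread between mice in it were not tested.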
